A study of Mus musculus with 8 samples.

Results

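Claudins, occludin and the zonula occludens (ZO) scaffold proteins build the tight junction, and 9 of their genes were followed here by symbol: the pore-forming claudins Cldn2 and Cldn15, the sealing or otherwise assigned claudins Cldn3, Cldn4, Cldn7 and Cldn23, occludin (Ocln), and the scaffolds Tjp1 (ZO-1) and Tjp3 (ZO-3). They are 9 of the 54532 genes in the count table, and 8 of them were among the 9971 genes with enough reads to be tested. Cldn23 was not, with 54 counts over the control and 11 over the RANKL libraries.

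The study asked how intestinal epithelium responds to RANKL, a cytokine of the tumour necrosis factor family that binds the receptor RANK. Mouse intestinal organoids, which are epithelial cultures grown from crypts in a gel, were left untreated (control) or treated with RANKL, and 4 libraries of each group were sequenced from the 3′ ends of the mRNAs. According to the study's methods, mouse organoids were established in a medium with epidermal growth factor, NOGGIN and R-spondin, and crypts, the epithelial pits of the gut wall, were the starting material. The labels give no dose, duration, mouse or culture for a library, so p-values measure the spread between these libraries, which may be technical in part.

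A tight junction is a belt of strands near the apical end of the lateral membrane that joins neighbouring epithelial cells and limits what passes between them. Claudins are membrane-spanning proteins that polymerize into these strands. Claudin-2 and claudin-15 form channels for small cations, and claudin-2 also passes water. In the small intestine the sodium that returns to the lumen through such channels feeds the uptake of glucose and other nutrients. Claudin-3 tightens the barrier and claudin-4 lowers cation passage in many epithelia, whereas the roles of claudin-7 and claudin-23 depend more on the tissue and are less settled. Occludin is a strand protein of another family, and ZO-1 and ZO-3 bind the ends of claudins inside the cell and tie the strands to actin.

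The libraries held between 583663 and 7807298 counts, and the RANKL libraries were shallower (median 1613410) than the control libraries (median 3911808). Levels are given as CPM, the reads of a gene scaled to a fixed library total. Where a gene had 0 counts, a level of up to 3 counts is allowed, which equals 0.384 CPM at the highest depth and 5.14 CPM at the lowest, and these limits, like the interval given for Cldn23, cover counting error only. The gene for RANK itself, Tnfrsf11a, was also higher with RANKL, at 155.6 ± 11.2 against 30.96 ± 6.41 CPM (SD, n = 4 each), and its log2 fold change was 2.39 (edgeR adjusted p = 7.2e-15). Epithelial markers (Epcam, Cdh1, Cdh17 and 3 keratins) summed to 5849 to 6869 CPM in control and 5897 to 6248 CPM in RANKL libraries. Cdh1 made up most of that sum. Of the 6 genes 2 were lower with RANKL and none was higher. Krt18 fell from 638.2 to 393.6 CPM (edgeR adjusted p = 9.4e-07) and Krt19 from 592.9 to 482.4 CPM (edgeR adjusted p = 0.023). Markers of fibroblasts did not exceed 3.44 summed CPM in any library, and those of endothelium did not exceed 3.44 summed CPM either, with Cldn5, Cdh5 and Kdr at 0 throughout. The immune list summed to 0 to 1.88 CPM in control and 8.34 to 11.3 CPM in RANKL libraries. Only its member Cd74, which encodes the invariant chain, had enough reads to be tested, and it made up most of the RANKL sum. Cd74 rose from 0.854 ± 0.703 to 7.469 ± 1.12 CPM (log2 fold change 3.4, edgeR adjusted p = 1.1e-06).

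Because the method yields reads from the 3′ end of each transcript, CPM values here were not divided by transcript length, and transcripts of a gene that share a 3′ end were counted together. Of all genes tested, 25.9% passed an adjusted p of 0.05 in edgeR's quasi-likelihood test with Benjamini-Hochberg adjustment. The share was 13.6% for higher and 12.4% for lower in RANKL. In 24.6% of the genes tested the CPM of the control and RANKL libraries did not overlap. Against this background 5 of the 8 tested members passed (62.5%): Cldn3 and Cldn4 were higher, and Cldn2, Cldn15 and Cldn7 were lower with RANKL. The members were chosen with earlier results of these data known, so the shares are a description and were not compared by a test. The groups did not overlap in 4 members, namely Cldn2, Cldn15, Cldn7 and Ocln, each with all RANKL libraries below all control libraries. The median log2 fold change of the 8 members was -0.33, beside 0.00 over all genes tested.

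**Figure D1:**
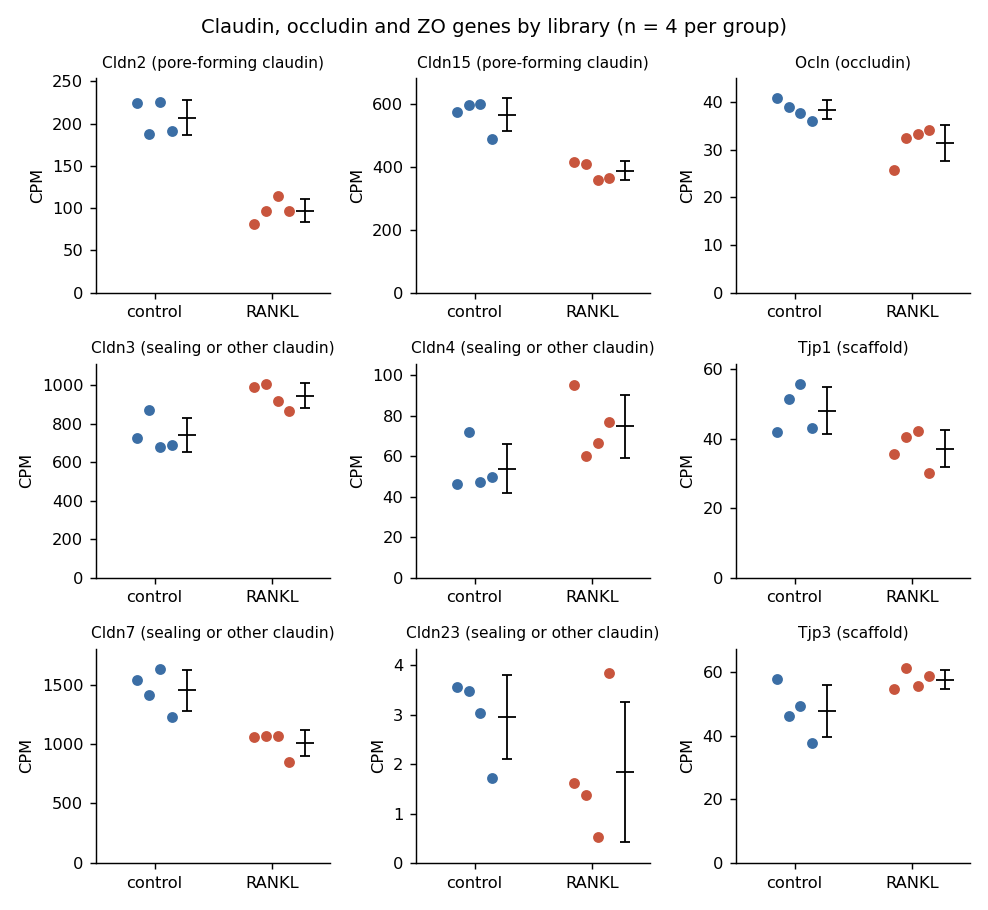
CPM (vertical axes, each from 0) of the 9 genes in the 4 control and 4 RANKL libraries; points are libraries and bars are the mean ± SD. For Cldn2, Cldn15, Cldn7 and Ocln every RANKL point lies below every control point, and Cldn23 stays under 4 CPM.

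The pore-forming claudins were lower with RANKL. Cldn2 lies on chromosome X at 139800828 to 139811386 on the plus strand (GRCm38), with a longest coding transcript of 2 exons. It measured 224.2, 187.8, 225.0 and 190.9 CPM in control libraries 1 to 4, and 80.72, 96.36, 114.7 and 96.11 CPM in RANKL libraries 1 to 4. The lowest control value was thus well above the highest RANKL value. The means were 207.0 ± 20.4 CPM and 96.98 ± 13.9 CPM (SD, n = 4 each). The log2 fold change was -1.08 (SE 0.116, edgeR adjusted p = 1.3e-08). An exact two-sided permutation test over the 70 ways to split the libraries gave 0.0286, the smallest p it can give with 4 against 4. This was the largest change in either direction among the 8 tested members.

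Cldn15 (chromosome 5, 136966616 to 136975858, plus strand, up to 6 exons) was the more abundant of the 2 pore-forming claudins in every library. Its values were 575.1, 597.6, 599.8 and 488.4 CPM in control and 416.5, 409.5, 359.3 and 364.7 CPM in RANKL libraries. The groups did not overlap, and the mean fell from 565.2 ± 52.4 to 387.5 ± 29.7 CPM (log2 fold change -0.56, SE 0.0976, edgeR adjusted p = 5.2e-05, exact permutation p = 0.0286). Cldn2 made up 26.85 ± 2.00% of the Cldn2 and Cldn15 reads in control and 20.08 ± 3.36% in RANKL libraries, and 1 RANKL library, at 24.2%, lay within the control range of 23.9 to 28.1%.

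The other claudins did not move as a group. Cldn7 (chromosome 11, 69964779 to 69967885, plus strand, up to 5 exons), whose protein lies largely along the lateral membrane and binds EpCAM, was the most abundant claudin in each control library. It measured 1535, 1409, 1630 and 1230 CPM in control and 1056, 1072, 1070 and 848.6 CPM in RANKL libraries. Every RANKL value was under the lowest control value. The mean fell from 1451 ± 173 to 1012 ± 109 CPM (log2 fold change -0.53, SE 0.102, edgeR adjusted p = 0.00021; exact permutation p = 0.0286).

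Cldn3 (chromosome 5, 134986214 to 134987472, plus strand, a single exon) rose. It measured 726.8, 873.2, 676.6 and 691.3 CPM in control and 992.9, 1006, 918.9 and 865.6 CPM in RANKL libraries. Only control library 2 reached into the RANKL range, above RANKL library 4. The means were 742.0 ± 90 and 945.9 ± 65.9 CPM, a log2 fold change of 0.34 (SE 0.0983, edgeR adjusted p = 0.0091; exact permutation p = 0.0571).

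Cldn4 ends 39280 bp before Cldn3 begins, on the opposite strand (chromosome 5, 134945119 to 134946934, a single exon), and was far less abundant. Its values were 46.09, 71.91, 47.39 and 49.87 CPM in control and 95.25, 59.88, 66.75 and 76.89 CPM in RANKL libraries. Control library 2, which was also the highest control library for Cldn3, exceeded 2 of the 4 RANKL libraries. The means were 53.82 ± 12.2 and 74.69 ± 15.4 CPM, with a log2 fold change of 0.42 (SE 0.155, edgeR adjusted p = 0.042; exact permutation p = 0.0857). The Cldn4 call was lost in 10 of 17 alternatives. Adjusted p was 0.077 in DESeq2, 0.058 without a filter on low counts and 0.34, at a log2 fold change of 0.29, with library depth as a covariate. Without single libraries the lost values were 0.15 (control 1), 0.088 (control 3), 0.063 (control 4), 0.14 (RANKL 1), 0.051 (RANKL 3) and 0.13 (RANKL 4).

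Cldn23 (chromosome 8, 35824712 to 35826559, minus strand, up to 2 exons) was near the limit of detection. It had 28, 13, 12 and 1 counts in control and 1, 2, 1 and 7 counts in RANKL libraries. The depth-adjusted ratio of RANKL to control was 0.565, with an exact 95% counting interval of 0.266 to 1.09, so a difference was not detectable at this depth.

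The promoter windows of the claudins with the largest fall and the largest rise are shown together with that of Cldn15, the other pore-forming claudin. They are from RefSeq on GRCm38.p6, 5′ to 3′ on the gene's strand, and hold 250 bases before and 20 bases from the annotated start. Capitals mark a TTTATG or TATAAA run in Cldn2, on the searched strand that carries it, and CAGGTG or its complement CACCTG in Cldn4.
Cldn2 (chrX:139800558-139800827, plus strand): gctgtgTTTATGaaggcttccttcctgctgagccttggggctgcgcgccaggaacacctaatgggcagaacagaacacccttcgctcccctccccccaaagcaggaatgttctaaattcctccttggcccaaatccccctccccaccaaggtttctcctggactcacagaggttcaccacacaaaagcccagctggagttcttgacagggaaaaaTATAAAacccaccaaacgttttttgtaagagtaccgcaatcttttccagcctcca
Cldn15 (chr5:136967619-136967888, plus strand): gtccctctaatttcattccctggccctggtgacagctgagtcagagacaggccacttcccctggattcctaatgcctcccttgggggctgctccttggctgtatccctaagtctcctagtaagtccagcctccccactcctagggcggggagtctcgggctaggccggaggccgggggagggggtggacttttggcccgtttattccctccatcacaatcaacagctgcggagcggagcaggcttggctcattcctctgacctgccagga
Cldn4 (chr5:134946915-134947184, minus strand): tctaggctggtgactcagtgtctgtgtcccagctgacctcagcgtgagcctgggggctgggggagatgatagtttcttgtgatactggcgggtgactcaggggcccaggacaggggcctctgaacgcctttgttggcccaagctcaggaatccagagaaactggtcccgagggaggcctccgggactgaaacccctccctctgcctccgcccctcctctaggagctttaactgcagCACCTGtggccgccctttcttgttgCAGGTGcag

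The motifs were searched on both strands of whole windows of 300 bases, which extend 50 bases from the start. Of the 9 members, 8 had a window, with 11 windows in all, and Cldn23 had none. TTTATG was the only form searched of the sites bound by the intestinal factors CDX1 and CDX2. It was found in Cldn2 only, 244 to 239 bases before the start, and occurs in 11.9% of all 32851 mouse windows. TATAAA was found in Cldn2 only, 35 to 30 bases before the start, and occurs in 13.6% of windows. CAGGTG, an E-box of the Snail type, occurs in 20.2% of windows and was found in those of Cldn3, Cldn4, Cldn7, Ocln and Tjp3, and in neither pore-forming claudin. In Cldn4 one copy lies 14 to 9 bases before the start and another at bases 12 to 17 from it, and in Cldn3 it lies at bases 32 to 37. The NF-kB motif, present in 8.46% of all windows, was in none of the 11. The Cldn15 and Tjp1 windows held none of these letters. Both windows lie inside the GENCODE spans of their genes, so the stretch before the outer start of these 2 genes was not searched. A match is a description of the letters and was not tested against the values.

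Among all claudin reads, Cldn7 and Cldn3 drew level with RANKL. In control libraries Cldn7 took 47.3 ± 2.93% of claudin CPM, ahead of Cldn3 with 24.3 ± 2.80%, Cldn15 with 18.5 ± 0.275%, Cldn2 with 6.78 ± 0.599% and Cldn4 with 1.76 ± 0.376%. In RANKL libraries Cldn7 took 39.4 ± 1.94%, Cldn3 36.9 ± 0.877%, Cldn15 15.1 ± 0.824%, Cldn2 3.81 ± 0.647% and Cldn4 2.93 ± 0.618%. The ranges of Cldn7 and Cldn3 were apart in control and overlapped in CPM in RANKL libraries, whereas the mean order of the other 3 was Cldn15, Cldn2 and Cldn4 in both groups. The CPM ratio of Cldn3 to Cldn7 ran from 0.415 to 0.62 in control and from 0.859 to 1.02 in RANKL libraries. The ratio of Cldn4 to Cldn2 ran from 0.206 to 0.383 in control and from 0.582 to 1.18 in RANKL libraries. All claudins together fell from 3060 ± 254 to 2563 ± 182 CPM, and their values did not overlap except for control library 4, at 2681 CPM, which lay within the RANKL range of 2301 to 2690 CPM.

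**Figure D2:**
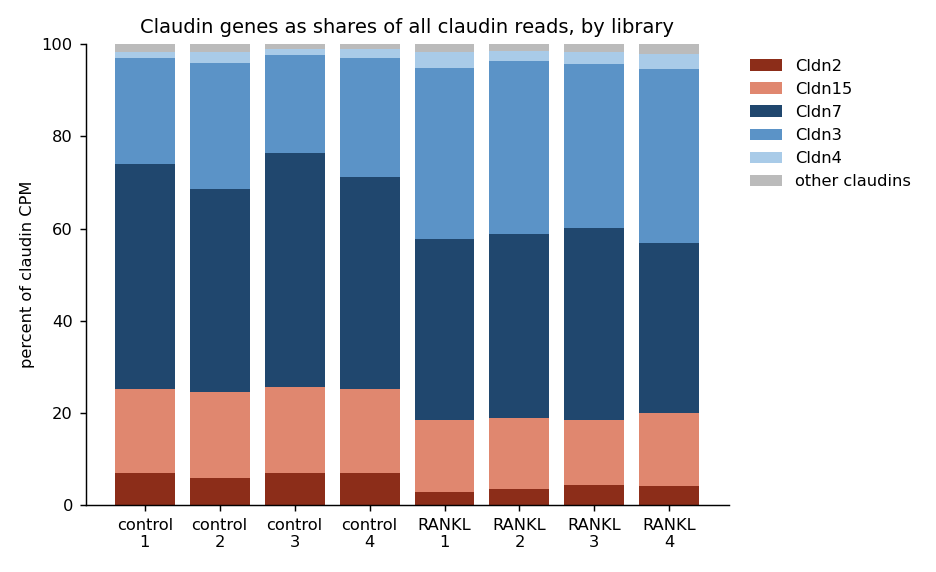
Stacked bars of each claudin's percent of summed claudin CPM (vertical axis, 0 to 100) in the 8 libraries. The red segments, Cldn2 and Cldn15, fill 24.6 to 25.7% of control and 18.4 to 20% of RANKL bars, and the Cldn3 segment widens from a mean of 24.3% to 36.9%.

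The pore-forming sum fell and the sealing sum overlapped between groups. Cldn2 and Cldn15 together gave 799.3, 785.4, 824.9 and 679.3 CPM in control and 497.2, 505.9, 474.1 and 460.8 CPM in RANKL libraries, a ratio of means of 0.627. Cldn3, Cldn4, Cldn7 and Cldn23 together gave 2312, 2358, 2357 and 1972 CPM in control and 2146, 2139, 2056 and 1795 CPM in RANKL libraries, a ratio of means of 0.904. Within this sum the lower Cldn7 and the higher Cldn3 and Cldn4 moved in opposite directions. The log2 ratio of the pore-forming to the sealing sum, which does not depend on library scaling, was -1.54 ± 0.0304 in control (range -1.59 to -1.51) and -2.07 ± 0.0718 in RANKL libraries (range -2.12 to -1.96), a difference of -0.52. This ratio is a description over members chosen with results known and was given no test. Its size depended on Cldn3 and Cldn7: the difference was -0.20 with Cldn3 taken out of the sealing sum and -1.03 with Cldn7 taken out.

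**Figure D3:**
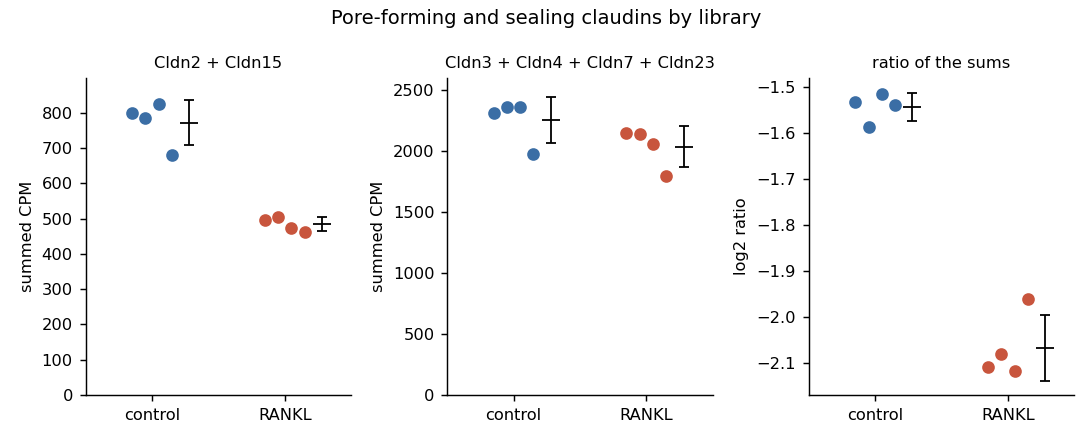
Summed CPM of the pore-forming claudins (left) and of the sealing or other claudins (middle), both from 0, and the log2 ratio of the sums (right, an axis that does not start at 0), by library with mean ± SD. The pore-forming sums and the ratios of the groups are apart, while the sealing sums overlap.

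Occludin and the scaffolds did not pass the test. Ocln (chromosome 13, 100496507 to 100552718, minus strand, up to 9 exons) measured 40.87, 38.91, 37.76 and 36.11 CPM in control and 25.83, 32.35, 33.38 and 34.05 CPM in RANKL libraries. All RANKL values were below all control values by a narrow margin, with an exact permutation p of 0.0286, and the fitted log2 fold change was -0.27 (SE 0.152, edgeR adjusted p = 0.2). Tjp1 (chromosome 7, 65296165 to 65527781, minus strand, up to 28 exons) averaged 48.04 ± 6.71 CPM in control and 37.14 ± 5.44 CPM with RANKL, with overlap (log2 fold change -0.38, SE 0.156, edgeR adjusted p = 0.07). Without control library 1 the Tjp1 value passed, at -0.48 and an adjusted p of 0.027. Tjp3 (chromosome 10, 81273207 to 81291581, minus strand, up to 21 exons) had 47.83 ± 8.31 and 57.68 ± 2.90 CPM, also with overlap (log2 fold change 0.21, SE 0.137, edgeR adjusted p = 0.28).

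By mean CPM the control order was Cldn7, Cldn3, Cldn15, Cldn2, Cldn4, Tjp1, Tjp3, Ocln and Cldn23. Cldn4 overlapped Tjp1, Tjp1 overlapped Tjp3 and Tjp3 overlapped Ocln in range, whereas the 4 most abundant claudins were apart from each other. With RANKL the order was Cldn7, Cldn3, Cldn15, Cldn2, Cldn4, Tjp3, Tjp1, Ocln and Cldn23. There Cldn7 overlapped Cldn3, Cldn2 overlapped Cldn4, Cldn4 overlapped Tjp3, and Tjp1 overlapped Ocln.

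Of 17 other claudin genes in the table, 8 had no count in any library and 1, Cldn12, could be tested. Cldn12, whose protein lacks the usual claudin tail that binds ZO proteins, had 37.61 ± 9.66 and 43.51 ± 3.91 CPM (log2 fold change 0.13, SE 0.166, edgeR adjusted p = 0.61). The sign of the Cldn12 value turned without control library 3 (-0.02, adjusted p = 0.94).

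Other tight junction proteins rose and fell beside the claudins. Of 35 such genes 27 were tested, 7 rose, 4 fell and 16 did not pass (40.7% called, against 25.9% of all genes tested). Their median log2 fold change was 0.15. Mylk encodes myosin light chain kinase, which acts on the myosin that contracts the actin ring at the junction. It measured 462.4, 460.2, 455.1 and 490.1 CPM in control and 1469, 1502, 1695 and 1684 CPM in RANKL libraries. The log2 fold change was 1.77 (SE 0.0941, edgeR adjusted p = 1.5e-15). Mylk also encodes the short protein telokin from the same 3′ end, and 3′ reads do not separate the transcripts.

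F11r, which encodes the adhesion receptor JAM-A, measured 447.3, 417.8, 412.3 and 395.5 CPM in control and 823.4, 851.4, 892.3 and 938.1 CPM in RANKL libraries (log2 fold change 1.06, SE 0.0923, edgeR adjusted p = 1.6e-10). Lsr, which encodes angulin-1, the protein that marks contacts where 3 cells meet, rose from 541.0 ± 68.5 to 908.6 ± 21.1 CPM (log2 fold change 0.75, edgeR adjusted p = 6.8e-07). Marveld2, which encodes tricellulin, the partner that angulin-1 brings to those contacts, rose from 43.96 ± 7.69 to 58.32 ± 8.71 CPM with overlap (log2 fold change 0.45, edgeR adjusted p = 0.026). The Marveld2 call was lost in 7 alternatives, among them DESeq2 (adjusted p = 0.058) and depth as a covariate (0.23, edgeR adjusted p = 0.4). Others were those without control library 1 (edgeR adjusted p = 0.084), RANKL library 1 (0.076) or RANKL library 3 (0.093).

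The cytoplasmic plaque proteins were split. Cgnl1 (paracingulin) rose from 33.06 ± 6.17 to 75.74 ± 7.43 CPM (log2 fold change 1.29, edgeR adjusted p = 2.8e-08), Cgn (cingulin) rose with a log2 fold change of 0.42 (adjusted p = 0.0068), and Tjap1, a binding partner at the junction, rose with one of 0.62 (adjusted p = 0.0093). The Tjap1 call was lost with depth as a covariate (0.35, adjusted p = 0.28) and the Cgn call without RANKL library 4 (0.34, adjusted p = 0.058). Sympk (symplekin), which also works in mRNA 3′ end processing, fell with a log2 fold change of -0.74 (adjusted p = 0.00022), Ybx3 (ZONAB), a factor that binds ZO-1, with one of -0.57 (adjusted p = 8.3e-05), Mpp5 (PALS1), a polarity scaffold, with one of -0.36 (adjusted p = 0.027), and Afdn (afadin), which links nectins to actin, with one of -0.34 (adjusted p = 0.016). The Mpp5 call was lost with DESeq2 (adjusted p = 0.053). It was also lost without control library 3, RANKL library 3 or RANKL library 4 (edgeR adjusted p = 0.085, 0.1 and 0.086). The Afdn call was lost without RANKL library 1 (edgeR adjusted p = 0.065). Both were lost at a threshold of 0.01. Marveld2, Cgn, Ybx3, Mpp5 and Afdn were chosen for mention after their values were seen, as were the genes Cdh1, Epcam, Krt18, Krt19, Cdx2, Snai1, Snai2, Gp2, Cd74, Lgr5, Smoc2, Axin2, Ascl2, Olfm4 and Spib where they are given as context.

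**Figure D4:**
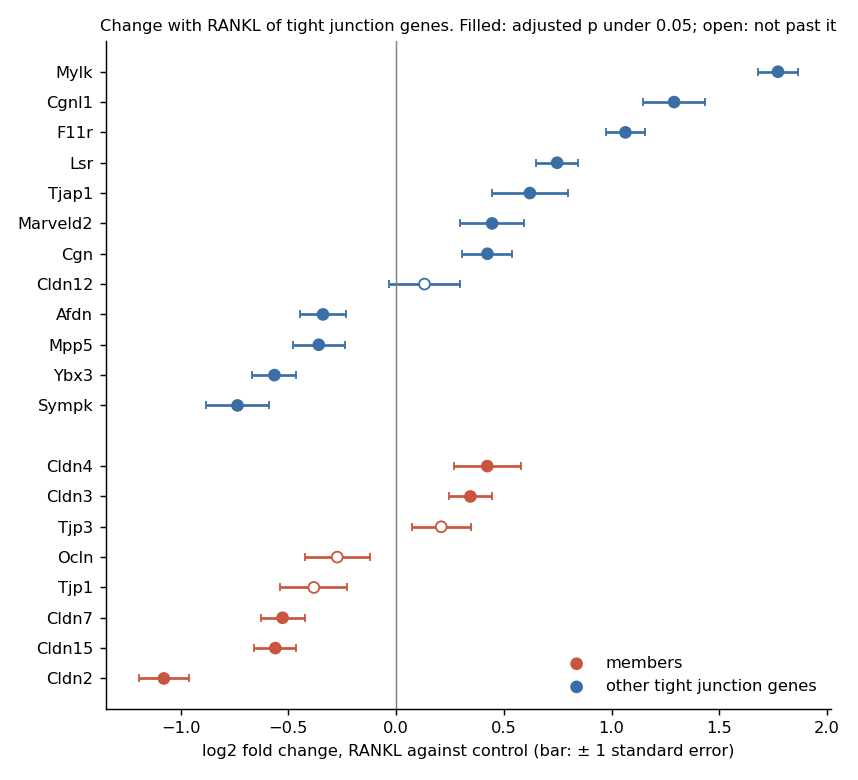
Log2 fold change, RANKL against control (horizontal axis), with ± 1 SE, of the 8 tested members and of Cldn12 and the other tight junction genes past the threshold; filled points have an adjusted p under 0.05. Mylk at 1.77 and Cldn2 at -1.08 are the extremes, and Tjp3, Ocln, Tjp1 and Cldn12 are open.

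The adherens junction and desmosome lie below the tight junction. Among 17 tested genes of their list 5 were higher, 3 were lower and 9 did not pass (median log2 fold change 0.06). The share called was 47.1%, against 25.9% of all genes tested. This list too was chosen with earlier results known, so the shares were not compared by a test. Nectins, the adhesion molecules that start cell contacts, differed in direction. Nectin1 rose from 19.41 ± 3.99 to 56.19 ± 8.89 CPM (log2 fold change 1.46, edgeR adjusted p = 9.7e-08), Nectin2 rose from 227.2 ± 12.6 to 588.3 ± 26.7 CPM (1.37, adjusted p = 8.6e-13), and Nectin3 fell from 142.9 ± 10.5 to 84.72 ± 12.1 CPM (-0.76, adjusted p = 9.2e-06). Jup (plakoglobin) rose with a log2 fold change of 0.72 (adjusted p = 8.3e-06) and Ctnnd1 (p120 catenin), whose exons overlap Gm28635 on the same strand, rose with one of 0.88 (adjusted p = 0.00032). Ppl (periplakin) fell with one of -0.72 (adjusted p = 0.031). The Ppl call was lost in 6 alternatives, among them DESeq2 (adjusted p = 0.08). Others were those without control library 3 (edgeR adjusted p = 0.068) or RANKL libraries 2, 3 or 4 (0.084, 0.096 and 0.11). The level of Cdh1 (E-cadherin), the main adhesion molecule of these cells, was 3472 CPM in control and 3486 CPM with RANKL (log2 fold change 0.00, adjusted p = 0.99).

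EpCAM binds claudin-7 and protects it from degradation, and the protease matriptase (St14) cuts EpCAM. In the list of EpCAM, its proteases and the WNK kinases that phosphorylate claudins, 2 of 7 tested genes rose and 3 fell. This is 71.4% called, against 25.9% of all genes tested. Spint2 and Spint1, which encode the protease inhibitors of matriptase, rose with log2 fold changes of 0.90 (edgeR adjusted p = 0.00018) and 0.48 (adjusted p = 0.00046). St14 fell with one of -0.38 (adjusted p = 0.0071), and Prss8 (prostasin), a protease that acts with matriptase, with one of -0.39 (adjusted p = 0.022), which was lost in 5 alternatives, among them those without control library 3 (adjusted p = 0.055), RANKL library 1 (0.057) or RANKL library 2 (0.098). Wnk4 fell from 21.47 ± 4.41 to 10.63 ± 2.06 CPM (-1.09, adjusted p = 0.00049). Epcam itself had 1032 and 1110 CPM (0.11, adjusted p = 0.42), while its partner Cldn7 fell.

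Among 13 transcription factors known to bind claudin or occludin genes, 9 were tested, 1 rose and 1 fell (22.2% called, against 25.9% of all genes tested). Vdr, the vitamin D receptor, for which Cldn2 is a known target in intestine, measured 309.8, 272.9, 286.4 and 287.2 CPM in control and 156.6, 154.9, 140.3 and 124.1 CPM in RANKL libraries (log2 fold change -1.02, SE 0.105, edgeR adjusted p = 5.4e-09). Cdx1 rose from 98.56 ± 12.4 to 175.0 ± 14.8 CPM (0.79, adjusted p = 2.6e-06), and Cdx2 had 220.3 and 206.5 CPM without passing the test. Snai1 had no count in any library, and Snai2, another Snail factor, had 14 counts over the control and 0 over the shallower RANKL libraries. Its control mean of 0.977 CPM was under the 3-count limit of each RANKL library (1.56 to 4.89 CPM), and Snai2 had too few reads to be tested. Whether any of these factors acts on the claudin genes was not tested.

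**Figure D5:**
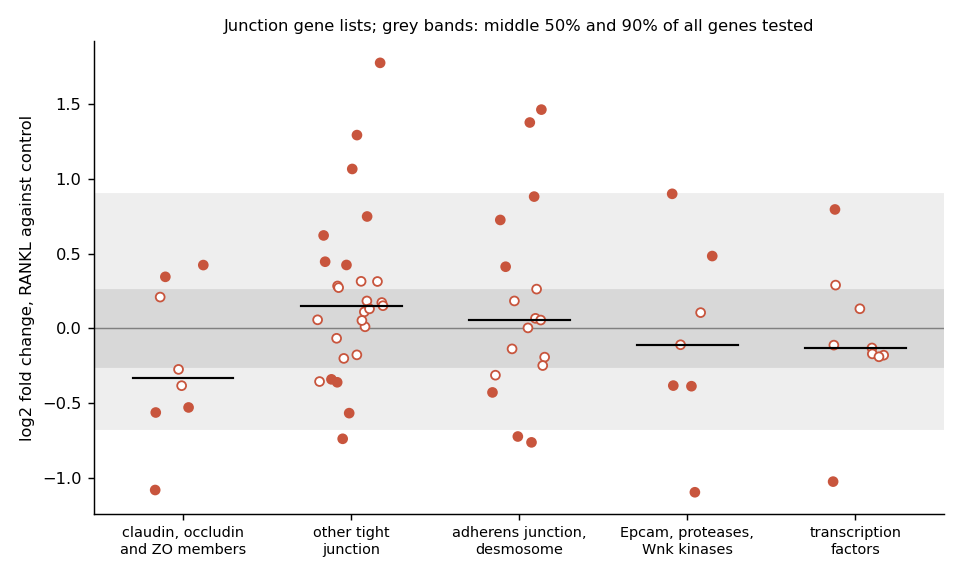
Log2 fold change, RANKL against control (vertical axis), of each tested gene of the members and of the 4 other lists; filled points have an adjusted p under 0.05, lines are medians, and the grey bands hold the middle 50% and 90% of all genes tested. The members' values run from -1.08 (Cldn2) to 0.42 (Cldn4), with genes on both sides of 0.

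Cell type markers also moved between the groups, and in bulk libraries fewer cells of a type and less RNA per cell cannot be told apart. Of all genes tested, 13.6% were higher and 12.4% lower with RANKL, the background for the counts of markers given here. Stem cell markers summed to 1878 to 2305 CPM in control and 1638 to 1816 CPM in RANKL libraries, with 1 of 6 genes higher and 3 lower. Olfm4 made up most of that sum (means of 1162 CPM without and 1026 CPM with RANKL, adjusted p = 0.22), while Lgr5 fell from 45.13 to 10.25 CPM, Smoc2 from 154.0 to 88.96 CPM and Axin2 from 28.49 to 14.7 CPM (edgeR adjusted p = 3e-10, 3.2e-05 and 0.00073). Ascl2, the stem cell marker that went the other way, rose from 17.61 to 37.32 CPM (edgeR adjusted p = 1.7e-05). M cell markers, for the epithelial cells that sample the gut content, summed to 54.11 to 60.57 CPM in control and 1876 to 2132 CPM in RANKL libraries, with 7 of 8 tested and all 7 higher, while Gp2, a defining marker of mature M cells, was at 0 counts in all libraries. Spib alone gave 4.348 CPM in control and 1607 CPM with RANKL, and the M cell list without Spib summed to 49.53 to 58.29 and 372.4 to 409.7 CPM. Enterocyte markers summed to 12000 to 15955 and 11032 to 12639 CPM (8 genes tested, 1 higher, 1 lower), Paneth markers to 5019 to 6321 and 4918 to 5898 CPM (6 tested, 1 lower), and goblet markers to 1952 to 2347 and 2030 to 2183 CPM (6 tested, none past the threshold). Enteroendocrine markers summed to 719.7 to 851.3 and 758.8 to 867.8 CPM (5 tested, 2 higher), and tuft markers to 5.16 to 16.1 and 11.5 to 17.8 CPM (1 tested, not past the threshold). Their part in the claudin differences was not tested.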

How the data were processed

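Total RNA of 8 organoid libraries, 4 control and 4 RANKL, was sequenced with a 3′ mRNA kit. The authors trimmed reads, removed abundant sequences, aligned the rest to GRCm38 and counted them per Ensembl gene by strand. The deposited values are these raw counts, with no normalization. Groups and replicate numbers come from the sample labels, and the same numbers were not taken to pair libraries. Columns were matched to samples by the sample descriptions. The authors' tests used DESeq2.

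Counts were fitted with edgeR 4.0.16 in R 4.3.3 (library totals over all genes, TMM factors, its filter on low counts, quasi-likelihood test, Benjamini-Hochberg adjustment over 9971 genes, threshold 0.05). The SE is the log2 fold change over the square root of the F statistic. CPM used TMM-scaled totals. Single genes also had an exact two-sided permutation test of CPM over 70 assignments. Alternatives were DESeq2 1.42.0, limma 3.58.1 with voom, other scalings and filters, a replicate block, a depth covariate, an adjusted p of 0.01 and each library left out. The steps were tested on simulated data. Symbols and positions came from GENCODE M21 and promoters from RefSeq, both on GRCm38. Within-group libraries had Spearman correlations of 0.9579 to 0.9861 over genes, and none was merged.

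The members and lists were chosen with earlier results of these data known. Named genes are all members, the genes past the threshold in each list (the 6 with the largest change at 5 CPM or more), other claudins with 20 counts or more, and Tnfrsf11a; genes outside this rule were named after their values were seen. A planned description of the proteins was not made.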

Additional observations from a re-analysis of the deposited data

Results flagged for a closer look

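In groups of 4 libraries, the gap from the highest or lowest value to the nearest of the others was divided by the range of the group (Dixon's ratio). Of 104 groups of values for 52 genes and measures, 9 were beyond the critical value, where chance gives about 1 in 20, or 5.2. Cldn4 in control library 2 was 71.91 CPM, above the next at 49.87, and Cldn7 in RANKL library 4 was 848.6 CPM, below the next at 1056. The summed claudin CPM of control library 4 was 2681, below the next at 3156, and its sealing sum was 1972, below the next at 2312. Nectin2 in control library 3 was 208.3 CPM against 232.2, and Nectin3 in control library 4 was 127.3 CPM against 147.3. Ppl in RANKL library 1 was 14.53 CPM against 8.948, and Spint2 in RANKL library 3 was 149.7 CPM against 187.3, and Olfm4 in RANKL library 4 was 865.6 CPM against 1070. Control library 4 is the shallowest of the 8, with 583663 counts.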

How the results depend on the processing

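Cldn2, Cldn15, Cldn7 and Cldn3 kept their direction and their call in all 17 alternatives. Over 43 of the named genes and 725 values, 680 kept direction and side of the threshold, 37 lost the call, 1 gained it (Tjp1) and 7 changed sign. None of these 7 passed the test: Cdh1 was -0.006263 with limma-voom, -0.02889 without a filter and from -0.0405 to 0.07824 without single libraries, Cdx2 was 0.03924 with depth as a covariate, and Cldn12 turned (-0.0201 and adjusted p 0.94 without control library 3, with a range up to 0.2533 over the single libraries left out). The count over all genes was 1636 (929 higher, 707 lower) at an adjusted p of 0.01, 2053 with DESeq2, 2522 with limma-voom, 1827 with depth as a covariate and 1926 with at least 10 counts in every library. Without single libraries it ran from 1853 (RANKL 4) to 2601, for members from 4 to 5, and for other tight junction genes from 9 to 11. The difference in the pore-forming to sealing log2 ratio was -0.749 from mean log2 values, -0.954 with Cldn2 alone, -0.398 with Cldn15 alone and -1.03 with Cldn3 and Cldn4 alone as sealing. It was -0.201 less Cldn3, -1.03 less Cldn7, and -0.559 to -0.508 without single libraries. The cause was not tested. Depth limits Cldn23, whose log2 fold change without the filter was -0.83 (adjusted p 0.43).

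Same-numbered control and RANKL libraries had correlations of -0.0343 to 0.104 between their deviations from the group means, so no pairing was seen. Counting error in the shallower libraries can hide a shared source, so these correlations cannot exclude pairing. With the replicate block 2610 genes passed (1362 higher, 1248 lower), with 5 members and 11 other tight junction genes among them.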
